A study of Bos taurus with 48 samples.

Results

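APOA1 (ENSBTAG00000002258) is 1 of the 24616 genes listed in a table of transcript levels from bovine cumulus-oocyte complexes (COCs). It was chosen by its FPKM in the outer cumulus cells against the inner cumulus cells, with earlier results of these data known. Its differences between the outer cumulus cells, the inner cumulus cells and the oocyte are therefore given as descriptions without a test. The gene encodes apolipoprotein A-I, the main protein of high-density lipoprotein (HDL). Apolipoprotein A-I takes up cholesterol and phospholipid that the transporter ABCA1 brings out of cells, and it activates LCAT, the enzyme that esterifies cholesterol in HDL. In mammals the gene is transcribed chiefly in liver and intestine. HDL is the lipoprotein that reaches the avascular interior of the follicle in quantity, where granulosa and cumulus cells take cholesterol from it for steroid synthesis.

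The COCs came from ovaries of Bos taurus cows killed at a slaughterhouse, were aspirated from antral follicles, and were neither cultured nor treated. Each of 16 COCs gave 3 samples, and every group holds 16 libraries. OuterCCs were the layer that came off first in trypsin, innerCCs were the few layers left around the oocyte and taken off in a second round, and the third sample was the denuded oocyte. COCs with many cumulus layers and an even cytoplasm had been picked, and several COCs may come from the same cow, since the labels name no animal. RNA of cumulus cells was purified with Trizol, whereas oocytes were lysed in the tube, so this step cannot be told apart from the cell type in comparisons with oocytes. PolyA+ RNA was then amplified by SMART-seq2, a protocol for single cells and very small samples. Levels are given in FPKM, that is, fragments per kilobase of transcript per 1000000 mapped fragments. FPKM carries no counts, so no value below has an interval for counting error, and the depth of a library is not known. A lower level in a sample can reflect fewer cells, less RNA in each cell or fewer transcripts of the gene, and these cannot be told apart.

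The innerCC libraries fell into 2 sets of 8 by the number of genes over 0.5 FPKM. Those of COCs 176 to 184 held 648 to 2639 genes and those of COCs 185 to 192 held 5876 to 10295, while outerCC libraries held 9054 to 11851 and oocytes 8525 to 11340. The labelled cell types were checked against lists of markers, of which only some could be matched to an identifier. The oocyte markers GDF9, BMP15, FIGLA, NLRP5, ZAR1 and KPNA7 summed to 933 to 2505 FPKM in oocytes. In outerCCs they summed to 0 to 2.06 FPKM, apart from COC 190 with 60.99 and COC 191 with 473. In the innerCC of COC 190 they summed to 117 FPKM, the highest of the innerCCs. The cumulus markers INHA, INHBA and CYP19A1 summed to 188 to 4798 FPKM in outerCCs and to 228 to 1882 in the innerCCs of COCs 185 to 192. In the innerCCs of COCs 176 to 184 their sum was 3.05 to 67.9 FPKM in 6 libraries, 140 in COC 184 and 179 in COC 176, below every innerCC of the other set. In oocytes the sum was 0 to 5.08 FPKM, apart from COC 181 with 23.1 and COC 191 with 162. The outerCC and oocyte libraries of COC 191 thus each held markers of the other. The main relations of APOA1 that use them are also given without this COC. So are the main mean differences of outerCCs from innerCCs and from oocytes, but not that of oocytes from the innerCCs of COCs 185 to 192.

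APOA1 was abundant in all outerCC libraries. Its level ran from 78.3 FPKM in COC 190 to 813 FPKM in COC 192, with a median of 331 and a mean of 334 ± 214 (SD, n = 16). By its mean it stood at place 228 of the 24616 genes listed, and within single libraries its rank lay between 116 and 759. With FPKM scaled to a sum of 1000000 in each library, its level was 124 to 1594. The 8 outerCC libraries of COCs 176 to 184 had 418, 418, 429, 658, 97.9, 219, 413 and 547 FPKM in order of their numbers. Those of COCs 185 to 192 had 121, 288, 373, 147, 176, 78.3, 151 and 813 FPKM. Of the former, 6 lay over 400 FPKM, as did a single one of the latter, but both sets reached below 100 FPKM and the ranges overlapped. The library of COC 180, at 97.9 FPKM, had the lowest FPKM sum of the outerCCs, and its scaled level was 607 against a median of 638. On the scaled values the sets ran from 607 to 1594 and from 124 to 1300.

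**Figure D1:**
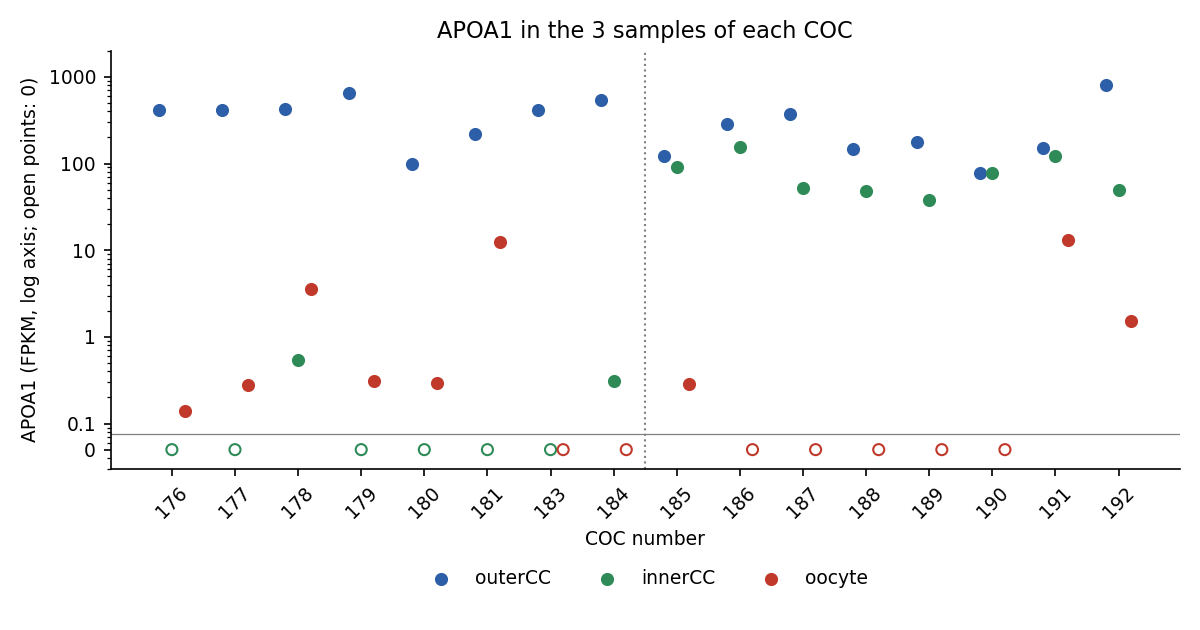
APOA1 level in FPKM on a log axis for the outerCC, innerCC and oocyte library of each of 16 COCs, with open points under the grey line for libraries at 0 and a dotted line between COCs 184 and 185. OuterCC points lie at 78.3 FPKM or higher, innerCC points lie at 0.542 FPKM or lower left of the dotted line and at 38.3 to 156 FPKM right of it, and oocyte points lie at 13.2 FPKM or lower.

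In innerCCs the level of APOA1 differed between the 2 sets of COCs. It was listed at 0 in the innerCCs of COCs 176, 177, 179, 180, 181 and 183, and at 0.542 and 0.312 FPKM in those of COCs 178 and 184. The steps between low FPKM values gave the relative value of a fragment in each library. The lowest APOA1 levels above 0, in 7 libraries that include the latter, were then taken as 1 fragment. Relative to these steps the 7 levels lay at 0.929 to 1.05 times their median. On that assumption 1 fragment of APOA1 was 0.576 and 0.330 FPKM in the latter libraries, so the size of 1 fragment was not measured independently of these levels. The innerCCs of COCs 185 to 192 had 91.2, 156, 52.0, 48.1, 38.3, 77.2, 121 and 49.5 FPKM in order of their numbers (79.1 ± 41.4, SD, n = 8). Their ranks within a library, 256 to 943, overlapped the ranks of 116 to 759 in outerCCs. All 8 of these innerCC libraries stood above all 8 of the other set, and above all 16 oocytes.

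In oocytes APOA1 was listed at 0 in 7 of 16 libraries, those of COCs 183, 184 and 186 to 190. The oocytes of COCs 176, 177, 179, 180 and 185 had 0.140, 0.275, 0.308, 0.297 and 0.285 FPKM, the other levels that were taken as 1 fragment. The oocyte of COC 192 had 1.53 FPKM and that of COC 178 had 3.52 FPKM. The highest levels were 12.4 FPKM in COC 181 and 13.2 FPKM in COC 191. The median over the 16 oocytes was 0.207 FPKM, and by its mean the gene stood at place 8314 of 24616. The order of the sample types was thus outerCC, innerCC, oocyte in each of COCs 185 to 192. In COCs 176 to 184 the outerCC was highest in each COC, and the levels of innerCCs, 0 to 0.542 FPKM, and of oocytes, 0 to 12.4 FPKM, overlapped.

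The difference between the cumulus layers was taken within each COC on the scale of log2(FPKM + 1), on which a gene listed at 0 has a difference set by the added 1 and no measured fold. APOA1 was lower in the innerCC than in the outerCC of the same COC in 16 of 16 COCs, by a mean of -4.93 ± 3.69 (SD, n = 16; SE of the limma fit 0.81). This mean joins 2 unlike sets, and without COC 191 it was -5.24. The SE is that of an unpaired fit, as are the other limma fits here unless a COC block is named. In COCs 176 to 184 the difference was -8.34 ± 0.83 (SD, n = 8) and ran from -9.36 to -6.63, and the size rests on the pseudocount there, since 6 of the 8 innerCCs were listed at 0. In those 6 COCs the outerCC level was 19.8 to 396 times the value set for 3 fragments of APOA1 in the innerCC. These multiples rest on the assumed size of 1 fragment, and the smallest was that of COC 181. In contrast, the difference in COCs 185 to 192 was -1.53 ± 1.40 (SD, n = 8) and ran from -4.01 to -0.02. The 2 ranges did not overlap, and the number of genes in the innerCC library did not overlap between the sets either. Its part in the difference between the sets was not tested. The relation of APOA1 in innerCCs with this number within each set is given below.

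Most genes were lower in innerCCs. The background over the 12428 genes detected in at least 1 sample type (over 0.5 FPKM in 8 or more of its libraries) was 77.4% lower at an adjusted p under 0.01 and 0% higher, with limma over the 32 libraries. The median difference over these genes was -1.42 over the 16 COCs, -2.07 in COCs 176 to 184 and -0.71 in COCs 185 to 192. Beyond the median of its own COC, APOA1 differed by a further -6.33 ± 0.46 (SD, n = 8) in COCs 176 to 184. Ordered by their mean difference, APOA1 stood at place 1 from the lowest end of the 12428 genes in COCs 176 to 184, and likewise over all 16 COCs. This is the pattern for which the gene was chosen.

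**Figure D2:**
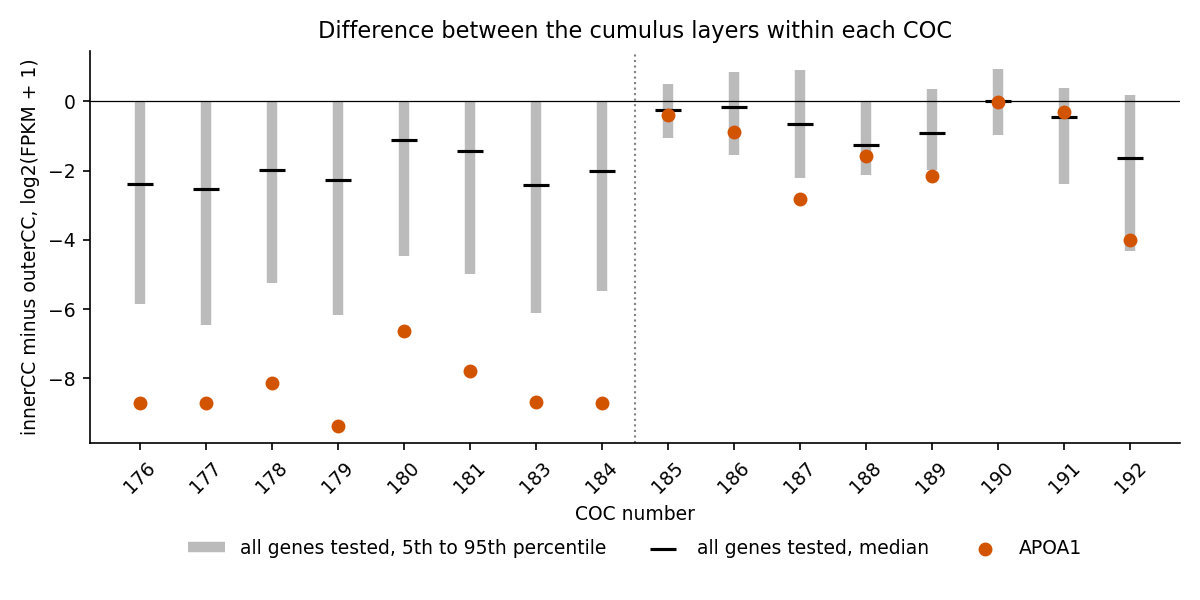
Difference between the innerCC and the outerCC of each COC on the log2(FPKM + 1) scale, with APOA1 in orange, the median of the 12428 genes tested as a black dash and their 5th to 95th percentile as a grey bar. APOA1 lies between -9.36 and -6.63, below the grey bar, in all 8 COCs left of the dotted line, and between -4.01 and -0.02 in the 8 COCs right of it.

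In COCs 185 to 192 the layers were closer. The outerCC level was 1.01 to 16.4 times that of the innerCC of the same COC (median 2.45). The widest gap was in COC 192, with 813 against 49.5 FPKM, and the narrowest in COC 190, with 78.3 against 77.2 FPKM. Relative to the median difference over all genes in the same COC, APOA1 was lower in the innerCC in 7 of 8 COCs, by a mean of -0.86 ± 0.98 (SD, n = 8). The exception was COC 191, where it was higher than that median by 0.12. With FPKM scaled to the same sum in each library, it was lower in the innerCC in 6 of 8 COCs, by a mean of -1.26 ± 1.504 (SD, n = 8). APOA1 stood at place 413 of 12428 genes from the lowest end in these COCs, and at place 892 on the scaled values, so that the lead it held in COCs 176 to 184 was not seen here. Without COC 192 the mean difference was -1.17, and without COC 191 it was -1.70.

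Ratios within a library do not depend on how the library was scaled. In COCs 185 to 192, APOA1 stood at 0.749 to 4.11 times APOE, the apolipoprotein that directs lipid particles to their receptors, in outerCCs (median 1.44) and at 0.745 to 6.69 times APOE in innerCCs (median 1.44). The ratio was lower in the innerCC in 2 of 8 COCs. Against CYP11A1, the enzyme that cuts the side chain of cholesterol in the first step of steroid synthesis, the median ratio was 0.906 in outerCCs and 0.850 in innerCCs, and the innerCC had the lower ratio in 6 of 8 COCs. Against INHA, the inhibin alpha subunit, the medians were 0.1004 and 0.0891, with the lower ratio in the innerCC in 3 of 8 COCs. The ranges of all 3 ratios overlapped between the layers.

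The outerCC library of COC 192 stood apart in several of these genes. Its APOA1 level of 813 FPKM was the highest of the series, while its INHA level of 803 FPKM and its CYP11A1 level of 33.5 FPKM were the lowest among the outerCCs of COCs 185 to 192. In that set the other 7 outerCCs had 1281 to 3430 FPKM of INHA and 94.0 to 647 FPKM of CYP11A1. APOA1 was 24.3 times CYP11A1 there and 0.577 to 2.19 times in the other 7. The keratin gene KRT18, listed as a marker of the ovarian surface epithelium, was at 142 FPKM in this library and at 0.986 to 30.3 FPKM in the other 15 outerCCs. The 4 matched markers of that epithelium together reached 142 FPKM in it, almost all of it from KRT18. The matched markers of theca and stroma, COL1A1, COL1A2, LUM and PDGFRA, summed to 81.8 FPKM in it and to 9.65 to 29.2 FPKM in the other 7 outerCCs of COCs 185 to 192. Of these, LUM was at 39.3, COL1A1 at 30.5 and PDGFRA at 12.1 FPKM, each the highest of its set, while COL1A2 was listed at 0. In COCs 176 to 184 the sum was highest in COC 177, at 89.3 FPKM, with APOA1 at 418 FPKM. Their part in the level of APOA1 was not tested.

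Compared with outerCCs, oocytes had less APOA1 in 16 of 16 COCs, by a mean of -7.28 ± 1.69 (SD, n = 16; SE of the fit 0.386). The difference ran from -9.10 to -3.42, the median over all genes tested was 0.25, and the smallest gaps were those of COCs 191 and 181. Without COC 191 the mean was -7.54. Against the innerCCs of COCs 185 to 192, oocytes had less APOA1 in 8 of 8 COCs, by a mean of -5.48 ± 1.29 (SD, n = 8; SE of the fit 0.487). This difference ran from -7.29 in COC 186 to -3.10 in COC 191, and its mean was not taken without COC 191. Against the innerCCs of COCs 176 to 184 the mean difference was 0.78 ± 1.32 (SD, n = 8) and the oocyte was lower in 1 of 8 COCs. The comparisons share the oocyte, innerCC or outerCC libraries with each other and are not independent.

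The level of APOA1 in an oocyte moved with the cumulus markers in the same oocyte. Across 16 oocytes, Pearson's r between APOA1 and the mean log2(FPKM + 1) of INHA, INHBA and CYP19A1 was 0.853 (two-sided permutation p = 0.00059, adjusted p = 0.00472 over 8 relations), and Spearman's rho was 0.675 (permutation p = 0.0055, adjusted p = 0.0440). Without the 2 oocytes farthest from the median of the markers, those of COCs 181 and 191, r was 0.444, so that the relation rests on them. Within COCs 176 to 184 r was 0.966, and within COCs 185 to 192 it was 0.888. The former set includes COC 181 and the latter COC 191, and neither r was taken without that oocyte. These values therefore do not show the relation apart from the 2 oocytes. Without COC 191 alone, a setting chosen after seeing the data, r was 0.786 (permutation p = 0.00479, adjusted p = 0.0383).

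The sizes are given here for the oocytes with the most APOA1. In COC 191 the oocyte held 13.2 FPKM of APOA1 and 109 FPKM of INHA, which are 8.75% and 8.54% of the levels in its outerCC. In COC 181 it held 12.4 FPKM of APOA1 and 18.0 FPKM of INHA, or 5.65% and 2.46% of its outerCC. In COC 178 the shares were 0.821% for APOA1 and 0.232% for INHA. The oocyte of COC 192 differed from these, with 1.53 FPKM of APOA1, 0.189% of its outerCC, and INHA listed at 0. The part of cumulus cell transcripts in the oocyte levels of APOA1 was not tested beyond this relation.

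**Figure D3:**
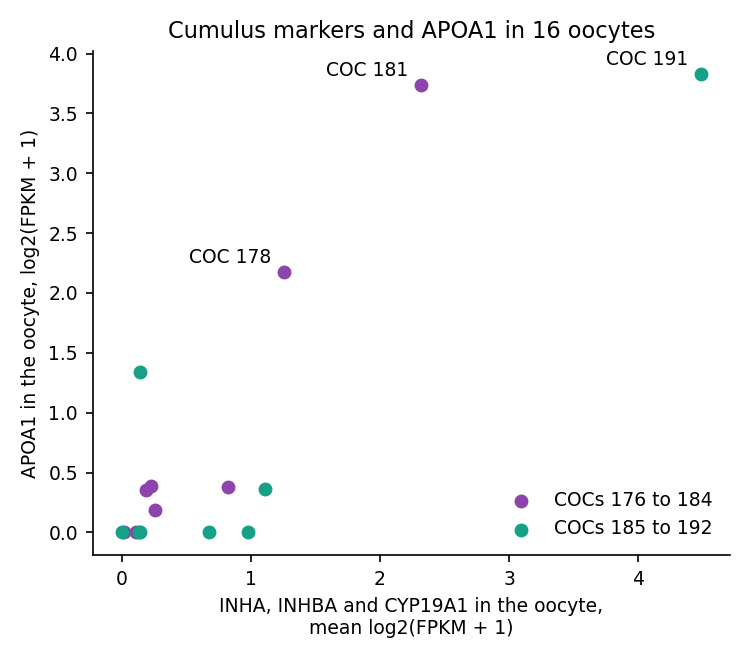
APOA1 in each of 16 oocytes against the mean level of the cumulus markers INHA, INHBA and CYP19A1 in the same oocyte, both in log2(FPKM + 1), with COCs 176 to 184 in purple and COCs 185 to 192 in green. The oocytes of COCs 178, 181 and 191 have the highest levels on both axes, and without COCs 181 and 191 Pearson's r falls from 0.853 to 0.444.

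None of the other 7 relations of APOA1 across libraries passed the correction, with adjusted permutation p values of r of 0.877. In outerCCs, r with the number of genes over 0.5 FPKM was 0.174 (n = 16, permutation p = 0.523), and rho was 0.332 (permutation p = 0.209). The r was 0.901 within COCs 176 to 184 and -0.0771 within COCs 185 to 192, so the pooled value joined unlike sets. With the cumulus markers of the same outerCC, r was 0.0697 (n = 16, permutation p = 0.798), with 0.708 and -0.339 within the sets. APOA1 in outerCCs and in innerCCs of COCs 185 to 192 had an r of -0.219 (n = 8, exact permutation p = 0.605), and APOA1 in outerCCs and in oocytes had an r of -0.0426 (n = 16, permutation p = 0.877). Without COC 191, r in outerCCs was 0.354 with the number of genes and 0.0772 with the cumulus markers. It was -0.164 between outerCCs and innerCCs, and between outerCCs and oocytes it turned to 0.120, with adjusted permutation p values of 0.790 to 0.877. In this number of libraries a COC with more APOA1 in its outerCC was not seen to have more in its innerCC or oocyte.

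Genes of lipoprotein and cholesterol biology were examined beside APOA1 from lists of 112 genes. Of these, 28 could be matched to an identifier, APOA1 among them, and 27 others are described here. Symbols came from gene lists of the study that were drawn up by the detection of genes in these same libraries and name 33.7% of the detected genes. The matched members are therefore not a random part of the lists, and their directions are not independent evidence. ABCG1, SCARB1 and CUBN, which encode an exporter, an HDL receptor and a receptor for apolipoprotein A-I, were not matched and are not analysed here. The same holds for APOA5, APOA4 and APOC3, the neighbours of APOA1 on chromosome 15 in the RefSeq annotation of the assembly ARS-UCD2.0. In that annotation APOA4 and the uncharacterized gene LOC107133155 overlap APOA1 in span. SMART-seq2 libraries keep no strand, so fragments of overlapping genes can be counted for the wrong gene.

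Over all 32 cumulus libraries, 21 of the 27 genes were lower in innerCCs and 0 were higher (limma, adjusted p under 0.01), against a background of 77.4% lower. At an unadjusted p under 0.05 the same counts of 21 and 0 were found, against 83.2% of all genes lower and 0.0322% higher. Their median difference was -1.44 and that of all genes was -1.42. The call on every one of the 21 genes was lost with the number of genes in a library as a covariate, where 0 of 27 passed. With that covariate the lower calls over all 12428 genes fell from 9620 to 4, so the loss was not particular to the lipid genes. Within COCs 176 to 184, a comparison added after seeing the data, 21 were lower and 0 were higher, against a background of 80.4% lower. At an unadjusted p under 0.05 these were again 21 and 0, against 84.8% of all genes lower and 0% higher.

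In COCs 185 to 192, 0 of the 27 genes passed in either direction, and the background was 1.53% lower and 0% higher. These 1.53%, 190 genes, fell to 0 with the COC as a block, with scaled FPKM, with a pseudocount of 0.1 and without COC 187, 188 or 189, and to 6, 18 and 2 without COC 185, 191 or 192. At an unadjusted p under 0.05 limma put 12 of 27 lower and 0 higher, against 48.4% of all genes lower and 0.0724% higher. The median difference of the 27 genes was -0.75 and that of all genes -0.71. NR5A1, a nuclear receptor that drives steroid enzyme genes, differed by -1.46 (SE 0.317, adjusted p = 0.0110). SREBF2, the activator of cholesterol synthesis genes, differed by -1.39 (SE 0.323, adjusted p = 0.0129). APOE differed by -1.62 (SE 0.408, adjusted p = 0.0159), from a median of 135 FPKM in outerCCs (57.5 to 198) to 53.7 in innerCCs (7.41 to 87.4), and was lower in the innerCC in 8 of 8 COCs. For APOA1 the same model gave -1.53 (SE 0.429), between the values of APOE and NR5A1.

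Of 14 genes listed for HDL assembly and remodelling, 5 were matched, and ABCA1 and LCAT had the lowest mean levels in outerCCs among these 5. ABCA1 was listed at 0 in all 16 innerCCs and reached at most 0.259 FPKM in outerCCs, and its layer difference in COCs 185 to 192 was -0.08 (SE 0.0941, adjusted p = 0.482). LCAT had a median of 1.76 FPKM in the outerCCs of COCs 185 to 192 (0.861 to 2.47) and 0.621 in their innerCCs (0 to 1.71), a difference of -0.73 (SE 0.219, adjusted p = 0.0272). In the other 8 COCs LCAT had a median of 2.67 FPKM in outerCCs and was listed at 0 in all 8 innerCCs. PON2, a paraoxonase, had medians of 27.0 and 16.2 FPKM in the outerCCs and innerCCs of COCs 185 to 192. LPL, lipoprotein lipase, had medians of 5.17 and 3.33 FPKM there. Neither difference passed the test, with adjusted p values of 0.0936 for PON2 and 0.247 for LPL in limma. In the same outerCCs the median level of APOA1, also per length of transcript, was 164 FPKM.

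Among receptors, LRP1, a receptor for APOE-bearing particles, differed by -0.93 between the innerCCs and outerCCs of COCs 185 to 192 (SE 0.235, adjusted p = 0.0161 with limma). LRP2 or megalin, a receptor for several apolipoproteins, had medians of 0.0128 FPKM in these outerCCs, 0.0220 FPKM in these innerCCs and 5.40 FPKM in the oocytes of the same COCs. Neither receptor passed between the layers in these COCs.

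Oocytes and outerCCs differed in 23 of the 27 genes. In oocytes 16 were lower and 7 were higher (limma, adjusted p under 0.01), against a background of 34.3% lower and 43.4% higher. The median difference of the 27 was -1.40 and that of all genes was 0.25. APOE differed by -6.42 (SE 0.288, adjusted p = 2.04e-20) and CYP11A1 by -6.45 (SE 0.423, adjusted p = 2.76e-16). These were the members with differences nearest to that of APOA1, -7.28 in the same model. The other 3 matched apolipoproteins were higher in oocytes. APOB, the structural protein of low-density lipoprotein, differed by 0.72 (SE 0.128, adjusted p = 3.80e-06), and APOD, a lipocalin that binds small lipids, by 1.14 (SE 0.295, adjusted p = 0.000667). APOA2, the second HDL apolipoprotein, differed by 0.70 (SE 0.244, adjusted p = 0.00914). Their levels were low, with medians of 0.713 FPKM for APOB, 1.98 FPKM for APOD and 0.403 FPKM for APOA2 in oocytes. APOA2 was listed at 0 in 8 of 16 oocytes, and its median was 0 in COCs 176 to 184 and 1.51 FPKM in COCs 185 to 192.

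The remaining genes that were higher in oocytes were ABCA1 (0.63, adjusted p = 1.12e-06), LRP2 (2.49, adjusted p = 8.55e-14), NR1H3 (1.68, adjusted p = 2.95e-08) and NR1H4 (2.36, adjusted p = 7.48e-13), all by limma on the log2(FPKM + 1) scale. NR1H3 and NR1H4 encode the liver X receptor alpha and the farnesoid X receptor, nuclear receptors for oxysterols and bile acids. NR1H3 had medians of 29.0 FPKM in the oocytes, 8.01 in the outerCCs and 2.98 in the innerCCs of COCs 185 to 192. In the same COCs, oocytes had 11 of the 27 genes lower than innerCCs and 8 higher, against a background of 14.1% lower and 48.8% higher. The count of 8 fell to 5 without COC 185, 186 or 190 and to 4 with the number of genes as a covariate. Over all 12428 genes the higher calls, 6061 in the main fit, were 5689 without COC 185 or without COC 186. They were 6204 without COC 190 and 4829 with the covariate. In the main fit CYP11A1 differed by -5.73 (SE 0.530, adjusted p = 1.40e-08), APOE by -4.96 (SE 0.484, adjusted p = 2.83e-08) and LRP2 by 2.57 (SE 0.211, adjusted p = 3.01e-09). APOA1 differed by -5.48 in that model.

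**Figure D4:**
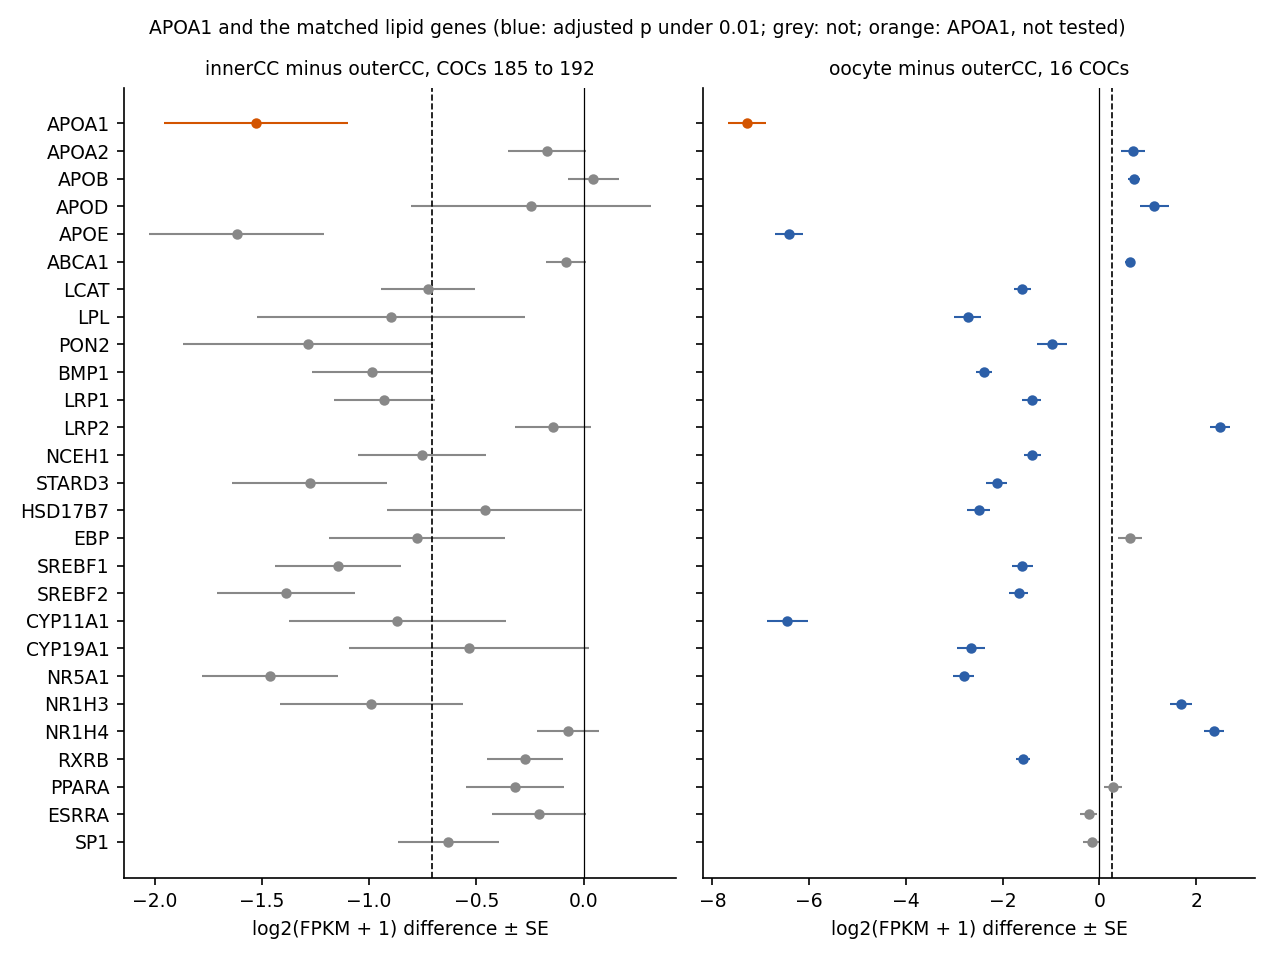
Differences on the log2(FPKM + 1) scale with their standard errors for APOA1 (orange, not tested) and 26 of the 27 lipid genes (blue where the adjusted p was under 0.01, grey otherwise), between innerCCs and outerCCs of COCs 185 to 192 on the left and between oocytes and outerCCs of 16 COCs on the right, with a dashed line at the median of all genes. No lipid gene is blue on the left, and 15 blue points lie below 0 and 7 above 0 on the right.

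Of 12 hepatocyte markers listed, 6 were matched, and they summed to 0 to 3.91 FPKM in outerCCs, 0 to 3.51 FPKM in innerCCs and 2.502 to 13.1 FPKM in oocytes. The level of APOA1 in the same outerCCs was 78.3 to 813 FPKM. The matched markers of theca and stroma (4 of 10) summed to 7.40 to 89.3 FPKM in outerCCs and to 5.69 to 21.5 FPKM in the innerCCs of COCs 185 to 192. The single matched marker of blood cells, CD3E, did not exceed 0.304 FPKM in outerCCs, but was at 1.51 to 9.83 FPKM in oocytes. The matched endothelial markers VWF, KDR and TEK summed to 0.0759 to 3.03 FPKM in outerCCs and to 12.9 to 34.4 FPKM in oocytes. Both were thus higher in every oocyte than in any outerCC.

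The genes most like APOA1 across COCs were ranked by Pearson's r of log2(FPKM + 1) over the 16 outerCC libraries, as a description without a test. The 10458 genes ranked had a median r of 0.297, so that a positive r with APOA1 was common, and all share the depth and scaling of their library. The gene of highest r was ENSBTAG00000023471 (0.861), followed by JUN (0.847), a subunit of the transcription factor AP-1, and ENSBTAG00000017460 (0.847). The next 2 genes, with r of 0.841 and 0.838, have no symbol in the sources used here. Within COCs 176 to 184 and COCs 185 to 192 the r of JUN was 0.810 and 0.849, and that of ENSBTAG00000023471 was 0.767 and 0.952. Without COC 191 the r of these genes was 0.850 and 0.858.

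JUN ran from 131 to 669 FPKM in outerCCs, with a mean of 359 FPKM, close to the mean of 334 FPKM of APOA1. The lowest level of both genes was that of COC 190. Unlike APOA1, JUN was not highest in COC 192. Among the genes with a symbol, those next after JUN were U4atac (r = 0.834), a spliceosomal RNA, KLF6 (0.816), a zinc-finger factor, MAPK9 (0.811), a JUN kinase, and FOSB (0.809), another AP-1 subunit. They were picked out after their values were seen and form no list. In oocytes the medians were 1.13 FPKM for JUN, 0.226 for KLF6 and 0.0920 for FOSB, and 5.59 FPKM for MAPK9, close to its mean of 5.65 in outerCCs. U4atac ran from 0 to 1253 FPKM in outerCCs, and its median was 0 in oocytes and in the innerCCs of COCs 185 to 192. Of the lipid genes ranked, ESRRA, an orphan nuclear receptor, had the highest r (0.672), followed by LCAT (0.528). ESRRA was low in outerCCs, at 0 to 1.68 FPKM with a mean of 0.784. Its r was 0.659 within COCs 176 to 184 and 0.702 within COCs 185 to 192. For LCAT these were 0.719 and 0.123. The r of APOE was 0.380 over 16 libraries, but 0.669 within COCs 176 to 184 and 0.687 within COCs 185 to 192, so the pooled value joined sets that lie apart. For CYP11A1 it was 0.198 over all, with 0.815 and -0.251 within the sets.

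**Figure D5:**
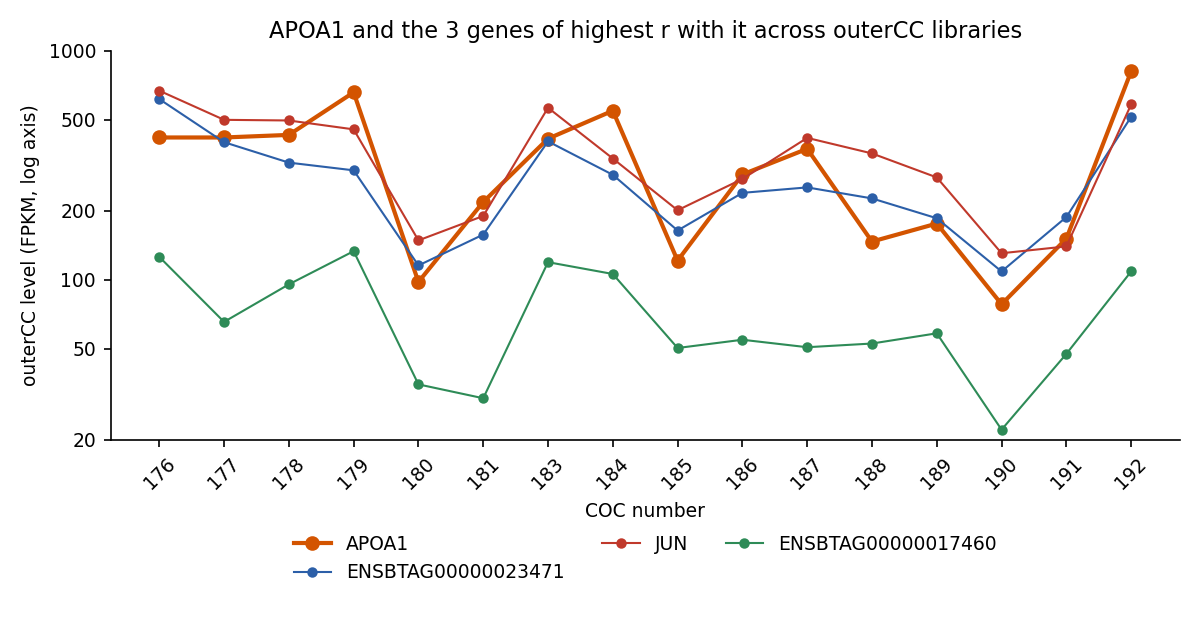
Level in FPKM on a log axis of APOA1 and of the 3 genes of highest r with it in the outerCC library of each of 16 COCs, with lines drawn only to guide the eye along a gene. APOA1 and the other genes are low together in COCs 180 and 190, and APOA1 is highest in COC 192 with 813 FPKM. The library of COC 180 has the lowest FPKM sum of the outerCCs, 161294 against a median of 492467.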

How the data were processed

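Per the labels and the study's methods, reads were mapped with STAR 2.5.2 to UMD3.1, duplicates were marked and taken out by Picard 2.5, and uniquely mapped fragments were turned into FPKM per Ensembl gene by Cufflinks 2.2.1. The values the authors deposited are these FPKM for 48 libraries, of which 0 columns lacked a sample. The filtered table holds the 12428 detected genes with values set to 0 in sample types where a gene was not detected, APOA1 in oocytes among them, and was not used further. The study compared sample types on counts with a collection batch, which the labels do not give, so no batch term was fitted and counts were not used here.

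Levels were read from the unfiltered table with Python 3.11.15, numpy 2.4.6, pandas 2.3.3 and scipy 1.17.1, and plotted with matplotlib 3.10.9. Sample types were compared with limma 3.58.1 in R 4.3.3 (eBayes without trend) on log2(FPKM + 1) over 12428 genes, at a Benjamini-Hochberg adjusted p under 0.01. The main model held no COC term, so it did not pair the samples of a COC. APOA1 was left untested. Correlations across libraries used 100000 permutations, or all permutations with 8 libraries, at an adjusted p under 0.05. The p-values measure the spread between COCs of unnamed animals.

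APOA1 and the gene lists were chosen with earlier results of these data known. Named genes are the 5 members of each lipid list with the highest mean in outerCCs, the partners and neighbours of APOA1, the 5 genes of highest r, and the leading markers. Other genes were named after their values were seen, and 1 lipid gene that the rule names is counted but, as an exception, neither named nor plotted. Symbols were paired through the supplementary lists of the study, and the RefSeq table of ARS-UCD2.0 was used only for neighbours.

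The 3 samples of a COC share its number, and the mean correlation of their deviations was 0.154 for innerCC and outerCC, 0.0102 for oocyte and outerCC and 0.0480 for oocyte and innerCC. The COC was therefore also fitted as a block. The relative value of 1 fragment was read from steps between FPKM under 5, found in 987 of 1128 pairs of libraries, of which 92.7% were fitted within 5%. Its size for APOA1 was set by taking the lowest levels of APOA1 above 0, in 7 libraries, as 1 fragment. These settings were chosen while the values were looked at. Data over 12428 genes were simulated as normal values, with both groups drawn from the mean and SD of each gene in outerCCs. In these, limma found 98% of 200 genes shifted by a log2 value of 2 with 16 libraries in each group (5 false calls). With the 8 libraries of COCs 185 to 192 in each group it found 75.5% (2 false calls). The spread and the 0s of the real innerCCs were not simulated, so these shares do not give the recovery in the real comparisons. Alternatives covered the pseudocount, the filter, the scaling, the block, the number of genes and each COC left out.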

Additional observations from a re-analysis of the deposited data

Results flagged for a closer look

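Levels of APOA1 were screened for libraries far from the others within each sample type and set of 8 COCs, 6 groups in all. A library was marked where its gap to the nearest other, relative to the range, passed Dixon's 95% critical value. That value marks about 1 in 20 groups of normally distributed values by chance, and FPKM with many 0s are not of that kind. In oocytes of COCs 185 to 192, COC 191 stood far above the other 7 with 13.2 FPKM, where the next highest was 1.53 FPKM. This oocyte also held 162 FPKM of the 3 cumulus markers, against 0 to 4.63 FPKM in the other 7. In outerCCs of the same COCs, COC 192 stood far above the rest with 813 FPKM, where the next highest was 373 FPKM. That library also held the highest KRT18 level, 142 FPKM, and 81.8 FPKM of the theca and stroma markers, the highest among the outerCCs of COCs 185 to 192. In oocytes of COCs 176 to 184, COC 181 stood far above the rest with 12.4 FPKM, where the next highest was 3.52 FPKM, and it held 23.1 FPKM of the cumulus markers, against 0.0338 to 5.08 FPKM in the other 7. The part of these markers in the levels was not tested.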

How the results depend on the processing

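The sign of each mean difference of APOA1 was unchanged under a pseudocount of 0.1, scaling to the library sum, subtraction of the median gene and omission of each COC. Only the oocyte and outerCC difference moved by more than 1 SD, to -9.37 with a pseudocount of 0.1. Without each COC in turn the means ran from -5.26 to -4.64 (innerCC minus outerCC), -1.74 to -1.17 (COCs 185 to 192), -7.54 to -7.16 (oocyte minus outerCC) and -2.76 to -2.02 (oocyte minus innerCC).

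With the number of genes as a covariate, lipid genes lower in innerCCs fell to 0 of 27, where 4 of all 12428 genes were lower. Those higher in oocytes than in the innerCCs of COCs 185 to 192 fell to 4, where 4829 of all genes were higher. The latter count ran from 5 to 8 without each COC and was 5 without COC 185, 186 or 190, while that over all genes ran from 5641 to 6204. With COC as a replicate block, 21 lipid genes were lower and 0 higher in innerCCs, where 9704 of all genes were lower and 4 higher. The block changed no count of lipid genes by over 1.5 times. Over all genes, the block took the 190 lower calls in COCs 185 to 192 to 0. The cause was not tested.

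Scaling turned r of APOA1 in outerCCs with the number of genes to -0.0641 and with the cumulus markers to -0.294. The r between outerCC and oocyte turned to 0.137 with scaling and to 0.0363 with a pseudocount of 0.1, and it was 0.120 without COC 191. None of these passed the correction. Of the 5 genes most like APOA1, 2 were also among the first 5 by Spearman's rho. FPKM without counts gives no depth, so levels near 1 fragment carry no interval.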
